A study of Schizosaccharomyces pombe with 6 samples.

Results

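Broad tag clusters are stretches of the fission yeast genome in which capped RNA 5′ ends were grouped into 1 wide cluster. They were chosen by 2 measured values of the deposited table of CAGE tag clusters, as those at least 80 bp wide (end minus start) with a pooled score of at least 6. The rule found 1252 clusters of 108138, and 9095 clusters reached the same score at less than 80 bp and are called narrow here. Both limits used values pooled over all libraries of both groups, so width and score are descriptions of how the clusters were chosen. A cluster can be broad because of starts used in 1 group, and its shape in a single library is not given. How tags are spread within a cluster was not measured, so a sharp peak with a thin tail can also be broad here.

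CAGE (cap analysis of gene expression) sequences the capped 5′ ends of RNAs and so counts transcription starts. Wild-type Schizosaccharomyces pombe and a double mutant were compared, with 3 libraries each from total RNA of whole cells grown in rich YES medium to mid-log phase. Both strains were haploid h- cells with ade6-M210, leu1-32 and ura4-D18 (the mutant's label writes ade6M210), and the mutant also carried fft2::kan and fft3::hph. Growth is described as duplicate cultures and the series as triplicates, so some libraries may come from 1 culture, and the p-values then cover differences among libraries, which may be technical.

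Fft2 and Fft3 are paralogous ATPases of the SNF2 family, which move or remodel nucleosomes. RNA polymerase II in fission yeast usually begins RNA synthesis at an initiator, a pyrimidine followed by a purine, with the purine as the first base of the RNA. Chromatin over coding regions normally keeps initiation there low, and starts inside genes or on their opposite strand give rise to shortened or antisense RNAs.

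The sequence at the summit, the position of most tags, differed among broad clusters. The sites below are examples picked from the named clusters after their values were seen. The first and second sets share a pyrimidine-purine step, and the third leaves out the wide cluster of ath1, which had a CA step. In each sequence below, 40 bases read 5′ to 3′ on the cluster's strand. The capitals mark the 2-base step that ends 1 bp upstream of the deposited summit, a reading set on promoter clusters. There the second capital is taken as the first base of the RNA. Whether RNA synthesis begins at intragenic steps that start with G was not tested. The first set are broad promoter clusters of highly expressed genes, with a pyrimidine-purine step.
sks2 (chrII:1106371-1106410, plus strand): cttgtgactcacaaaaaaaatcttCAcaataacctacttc
tkt1 (chrII:2586355-2586394, plus strand): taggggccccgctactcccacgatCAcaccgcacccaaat
sua1 (chrII:1572954-1572993, minus strand): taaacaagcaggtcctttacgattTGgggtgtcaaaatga
The second set are clusters inside genes, and 1 on the strand opposite to ath1, that rose in the mutant and also had a pyrimidine-purine step.
mdn1 (chrIII:1906378-1906417, plus strand): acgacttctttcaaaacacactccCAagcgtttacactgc
usp109 (chrII:4406517-4406556, plus strand): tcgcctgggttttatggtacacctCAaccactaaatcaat
pot1 (chrI:4130907-4130946, plus strand): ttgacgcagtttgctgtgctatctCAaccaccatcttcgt
ath1 antisense (chrII:1667737-1667776, minus strand): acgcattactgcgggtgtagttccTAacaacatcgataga
The third set are very wide clusters inside abundantly transcribed genes, whose summit step began with G.
met26 (chrI:1480133-1480172, plus strand): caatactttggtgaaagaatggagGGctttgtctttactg
hsp90 (chrI:3890177-3890216, minus strand): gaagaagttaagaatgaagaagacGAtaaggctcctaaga
pma1 (chrI:3873164-3873203, minus strand): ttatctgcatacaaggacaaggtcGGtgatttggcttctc
sdh1 (chrI:3797836-3797875, minus strand): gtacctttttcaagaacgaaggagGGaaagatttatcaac
pfk1 (chrII:2299265-2299304, minus strand): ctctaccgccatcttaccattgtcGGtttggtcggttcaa
Sequences are from RefSeq assembly ASM294v3, whose fit to the deposited coordinates was tested as described under processing.

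Libraries held between 12681899 and 23242897 tags, of which between 91.2% and 92.3% lay in clusters, and levels are given in TPM, the tags of a cluster scaled to a fixed library total. Tags in the coding part of fft2 were at 6.28, 4.65 and 4.40 TPM in wild-type cells and at 0.172, 0.0862 and 0.101 TPM in the mutant (log2 fold change -3.17, limma, adjusted p = 2.56e-06). The corresponding fft3 values were 2.84, 1.5 and 3.34 TPM against 0.215, 0.474 and 0.554 TPM (log2 fold change -1.71, limma, adjusted p = 0.000878). Coding tags of ura4 were at 0 in all 6 libraries. These levels go with the genotype labels of every library. Wild-type replicate 2, the shallowest library, had 8 broad clusters at over 4 times the level of both other libraries of its group, and no other library had any.

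The broad clusters covered 172201 bp, with 604 on chromosome I, 420 on chromosome II and 228 on chromosome III. Their median width was 112 bp (quartiles 91 and 151 bp) and the widest spanned 832 bp. The median pooled score was 26.1 and the highest 20391.6. At the width limit, 22 clusters measured exactly 80 bp and 30 clusters of sufficient score measured 79 bp. At the score limit, the lowest 3 members had scores of 6.025, 6.032 and 6.034, and the highest 3 excluded clusters had 5.918, 5.993 and 5.996. All 1252 members passed the filter on low values (mean of 1 TPM or more) and so entered the test.

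More broad clusters lay inside genes than at promoters. A promoter window ran from 500 bp upstream to 100 bp downstream of the annotated start of a coding gene, or to its start codon where that was further. By the summit, 322 broad clusters (25.7%) lay in a promoter window, 686 (54.8%) inside a coding gene on its strand, 166 (13.3%) on the opposite strand of a coding gene and 78 (6.23%) elsewhere. Among narrow clusters the shares were 59.8% promoter, 19.6% intragenic, 12.8% antisense and 7.89% other. The broad set was thus shifted from promoters to gene interiors, while its antisense and other shares were close to those of narrow clusters. These shares describe fixed sets of clusters, and their difference was not tested.

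Within genes, 662 of the 686 intragenic clusters had their summit in a coding exon, 10 in an intron and 14 in the 3′ trailer. Of the 322 promoter clusters, 211 had it in the 5′ leader, 101 upstream of the annotated start and 10 in the coding part near the start. Of the 166 antisense clusters, 137 lay opposite a coding exon, 22 opposite a trailer, 4 opposite an intron and 3 opposite a leader.

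**Figure D1:**
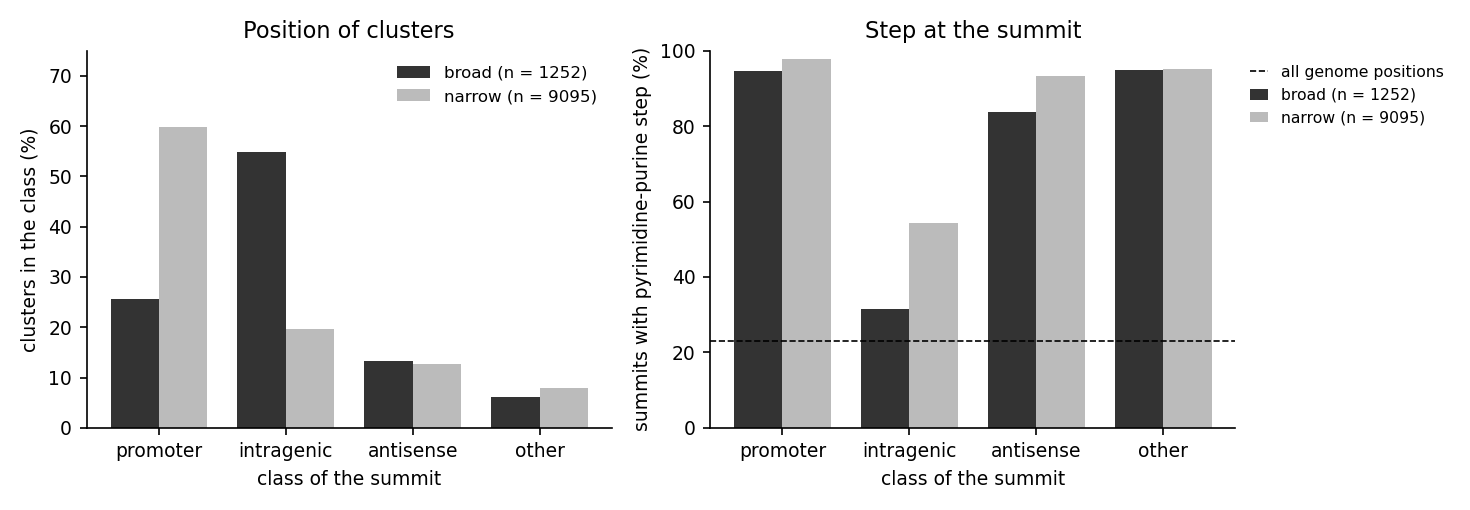
The left plot gives the percent of broad (dark) and narrow (light) clusters in each position class, and the right plot the percent of their summits with a pyrimidine-purine step, with the genome-wide share as a dashed line at 23.1%. Broad clusters are mostly intragenic (54.8%), and the intragenic class alone has a low share of pyrimidine-purine steps (31.5% of broad and 54.3% of narrow clusters).

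The share of summits with a pyrimidine-purine step was lower for intragenic clusters than for the other 3 classes. A pyrimidine-purine step was found at 305 of 322 broad promoter summits (94.7%), 139 of 166 antisense summits (83.7%) and 74 of 78 other summits (94.9%), but at 216 of 686 intragenic summits (31.5%). Of all genome positions, 23.1% have such a step. Among narrow clusters the share was 97.8% at promoters, 95.1% at other summits, 93.4% antisense and 54.3% inside genes, so it was lowest inside genes in both sets.

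The remaining intragenic summits mostly had G as the first base of the step. That base was G at 447 intragenic summits (65.2%) and at 12 promoter summits (3.73%), whereas G makes up 18% of genome positions. The commonest intragenic steps were GG, at 189 summits (27.6%), and GA, at 144 (21.0%), ahead of CA at 93 and TA at 63. Intragenic sequence was also richer in G and C, with a median of 44.3% over the cluster against 35.4% in promoter clusters and 36.1% in the genome.

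Promoter motifs were searched by their letters. A TATA motif, here TATAAA or TATATA on the cluster's strand between 20 and 70 bp upstream of the summit, was present at 15.2% of broad and 15.0% of narrow promoter clusters. The HomolD box of ribosomal protein genes (CAGTCACA or its reverse complement TGTGACTG within 100 bp upstream) was present at 2 broad promoter clusters (0.621%) and at 126 narrow ones (2.32%). TATAAA and TATATA can overlap, and a window with either or both counted once. A match describes these letters only.

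In the double mutant, broad clusters were more often higher than lower. With limma on log2(TPM + 0.5) over 11250 clusters and Benjamini-Hochberg adjustment at 0.05, 565 of 1252 broad clusters were higher in the mutant (45.1%) and 89 were lower (7.11%). Over all clusters tested, 36.9% were higher and 9.36% lower. The median log2 fold change was 0.44 for broad clusters and 0.27 for all clusters tested. A scaling by the median of ratios to the geometric mean moved the median of all clusters to -0.017 and gave 423 higher and 187 lower broad clusters, so these counts depend on the scaling. The share of all clusters called by the median of ratios is not given, here or below. Counts by that scaling therefore cannot be set against the backgrounds printed. At least a 2-fold change beside the same threshold was seen for 351 higher and 23 lower of the 1252 broad clusters. Over all 11250 clusters tested, 2668 were higher and 304 lower by that rule.

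The calls were spread unequally over the classes. Of promoter clusters 89 were higher (27.6%) and 50 lower (15.5%), against backgrounds of 21.9% and 13.0% (34.8% in either direction) of all promoter clusters tested, and by the median of ratios 52 were higher and 92 lower. Of intragenic clusters 326 were higher (47.5%) and 17 lower (2.48%), against backgrounds of 48.4% and 3.08%, and 236 and 60 by the median of ratios. Of antisense clusters 119 were higher (71.7%) and 9 lower (5.42%), against backgrounds of 75.3% and 3.55%. As whole classes, the shares higher inside genes and antisense were thus near or below the background. Those of promoter clusters were above it in both directions. Split by step, with the limit given below, the intragenic shares higher were above it. They were 82.9% against 75.6% with a pyrimidine-purine step and 31.3% against 24.1% with another step. These differences from the background were not tested.

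Among intragenic clusters, those with a pyrimidine-purine step held more of the calls and the larger changes. With that step, 179 of 216 were higher and 12 lower (background 75.6% and 5.37% of such intragenic clusters), with a median log2 fold change of 1.76. With any other step, 147 of 470 were higher and 5 lower (background 24.1% and 1.04%), with a median of 0.31. By the median of ratios the first set had 167 higher and 16 lower calls, while the second had 69 higher and 44 lower and a median of 0.021. Without mutant replicate 2 or 3, 96 and 92 clusters of the second set were higher. Width, score and summit are taken over both groups together, so starts used in the mutant can help to set both membership and step. Of the 686 intragenic clusters, 129 had over 80% of the sum of both group means from the mutant. The split was also made after the values were seen, so all values given by step are descriptions, and the difference between the sets was not tested.

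**Figure D2:**
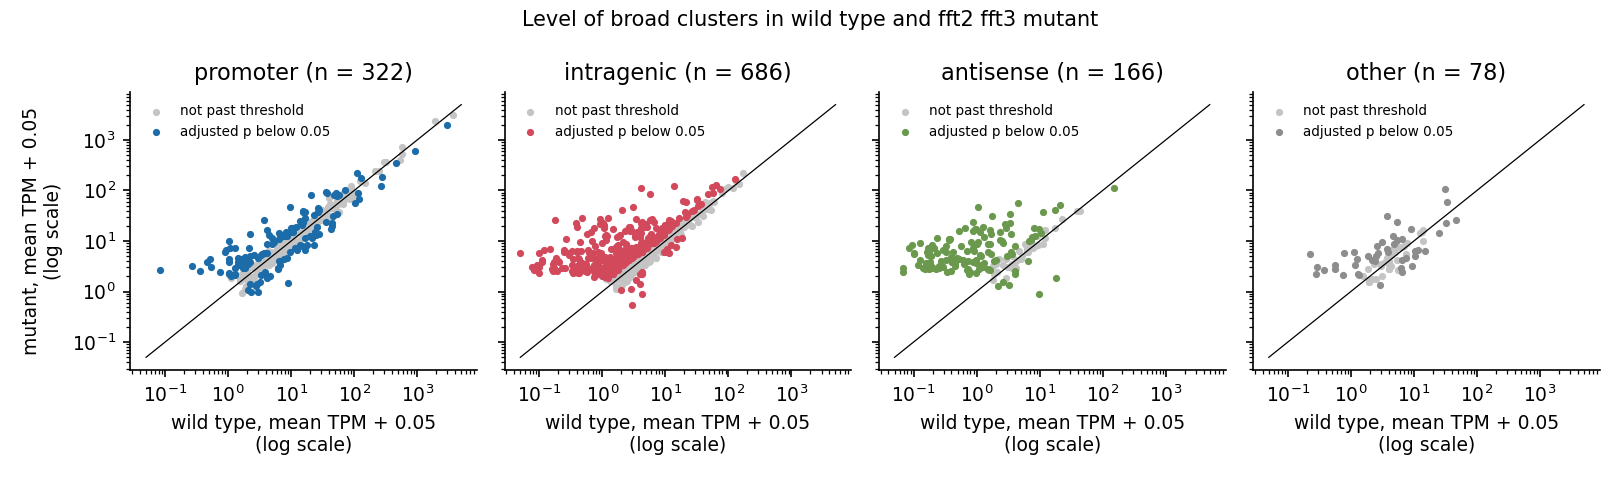
Each point is a broad cluster, with its mean over 3 wild-type libraries on the x axis and over 3 mutant libraries on the y axis (TPM + 0.05, log scales, equal levels on the line); coloured points passed limma at an adjusted p of 0.05. Promoter clusters reach the highest levels and lie along the line, and intragenic and antisense clusters of low wild-type level lie above it.

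The share of a library's cluster tags that fell in broad clusters does not depend on scaling. It was 2.73%, 2.79% and 2.82% in the wild-type libraries and 3.01%, 3.13% and 3.21% in the mutant, so the groups did not overlap. The means were 2.78% ± 0.0419 and 3.12% ± 0.0985 (SD, n = 3), with an exact two-sided permutation p of 0.1, the smallest that 3 against 3 allow (adjusted over 7 shares, 0.117).

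Promoter clusters held most of these tags. Their share was 2.09% ± 0.0459 in wild-type cells and 2.01% ± 0.0356 in the mutant (SD, n = 3, exact permutation p = 0.2), with overlapping groups. Intragenic clusters with a pyrimidine-purine step went from 0.0661% ± 0.00079 to 0.234% ± 0.0072 (SD, n = 3). Intragenic clusters with another step were at 0.494%, 0.486% and 0.494% in wild-type cells and 0.539%, 0.665% and 0.683% in the mutant. Both values by step carry the limit given above and are not tested here. In the second set mutant replicate 1 stood nearer to the wild type than to the other two mutant libraries. Antisense clusters went from 0.0772% ± 0.00465 to 0.172% ± 0.00213 and other clusters from 0.0544% ± 0.00439 to 0.0731% ± 0.00586 (SD, n = 3, exact permutation p = 0.1 for each). Antisense membership also rests on pooled values, and 88 of the 166 had over 80% of the sum of both group means from the mutant.

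**Figure D3:**
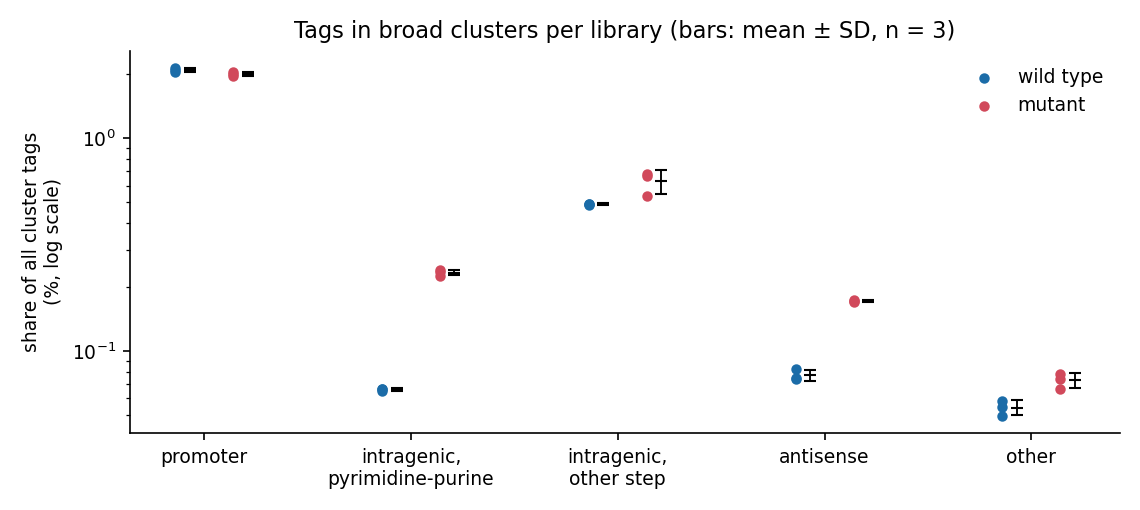
Each point is 1 library's percent of all cluster tags that lay in broad clusters of a class (log scale), with mean ± SD bars (n = 3) beside the points. Promoter shares overlap between groups (2.09% and 2.01%), and the mutant libraries lie above the wild type for the other sets.

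Among promoters, broad clusters belonged to 303 genes, 6.46% of the 4691 coding genes with a promoter sum of at least 1 TPM. In 195 cases the broad cluster was the strongest of its window, and 132 of these had their summit within 5 bp of the annotated start. Over all 322, 136 summits (42.2%) lay within 5 bp of the start, against 70.8% of narrow promoter clusters. Another 98 lay further upstream, at a median of -196.5 bp, and 88 further downstream, at a median of 177 bp. The annotated start fell inside 162 of the clusters (50.3%) and the start codon inside 44. Genes whose strongest cluster was broad had a median annotated leader of 140 bases, against 87 bases for 4418 genes whose strongest cluster was narrow. The difference in leader length was not tested.

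The 8 broad clusters of highest level were all at promoters, most of them of genes for metabolic enzymes. The highest was that of sks2, which encodes a ribosome-associated Hsp70 chaperone, a 223 bp cluster (chrII:1106395-1106617, plus strand) at 2659, 4118 and 4141 TPM in wild-type cells and 3748, 2545 and 3191 TPM in the mutant. The groups overlapped (log2 fold change -0.19 ± 0.21 SE, limma, adjusted p = 0.492). The broad promoter cluster of eca39, encoding a branched chain amino acid aminotransferase (chrII:443836-443953, minus strand), stood at 3004, 2506 and 3254 TPM against 2017, 1987 and 2022 TPM. Its summit lies 87 bp after the annotated start, in the annotated coding part, as the annotated leader has 22 bases. Every mutant library was lower than every wild-type library (log2 fold change -0.53 ± 0.13 SE, limma, adjusted p = 0.00821).

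The transketolase gene tkt1 had the widest broad promoter cluster, 650 bp (chrII:2586376-2587025, plus strand) that began at the start and ran on downstream, with a level of 1841, 1835 and 2137 TPM in wild-type cells and 2950, 1925 and 2104 TPM in the mutant. Its groups overlapped (log2 fold change 0.24 ± 0.17 SE, limma, adjusted p = 0.283), and the sign turned by the median of ratios. The level at arg4, which encodes the carbamoyl-phosphate synthase of arginine synthesis, fell from 933 ± 96.2 to 594 ± 36.8 TPM (SD, n = 3, log2 fold change -0.65, limma, adjusted p = 0.0024). That at met14, encoding the adenylyl-sulfate kinase of sulfate assimilation, fell from 469 ± 25.1 to 356 ± 30.3 TPM (SD, n = 3, log2 fold change -0.40, limma, adjusted p = 0.0225), a call that was lost on leaving out either wild-type replicate 1 or 3, or the mutant's replicate 3 (limma, adjusted p = 0.0777, 0.0511 and 0.0538). These 2 clusters and eca39 are the ones of the 8 that passed the threshold, and all 3 were lower.

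The other members of the 8 did not pass it. The sulfate adenylyltransferase gene sua1, which acts 1 step before met14, was at 556, 656 and 517 TPM against 515, 781 and 855 TPM (limma, adjusted p = 0.27). The fatty acid synthase gene fas1 was at 585, 568 and 453 TPM against 292, 429 and 471 TPM (limma, adjusted p = 0.0916), and adg2 at 717, 574 and 405 TPM against 363, 614 and 591 TPM (limma, adjusted p = 0.751). Wild-type and mutant values overlapped for all 3, although fas1 passed as lower by the median of ratios (log2 fold change -0.77, limma, adjusted p = 0.00776) and sua1 as higher without mutant replicate 1 (limma, adjusted p = 0.0185).

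At some promoters the ratio of a broad cluster to the rest of its window differed between the groups. Such a change can come from either part and does not show that starts moved between them. The ratio of a cluster to the other clusters of its window was tested over 17002 promoter clusters, of which 10.3% shifted toward and 11.9% away from the cluster in the mutant. Most of these were weaker than any broad cluster, and among the 4950 with a mean of at least 1 TPM the shares were 12.9% and 18.9%. Of 295 broad clusters tested, 69 gained (23.4%) and 49 lost (16.6%) relative to their window. With a pseudocount of 0.1 TPM 37 gained and 31 lost, and without mutant replicate 2 or 3, 44 and 41 gained.

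The 3 largest gains, taken by size among those past the threshold, were broad clusters upstream of annotated starts. At imt1, encoding an inositol phosphorylceramide mannosyltransferase, a 103 bp cluster with its summit at -253 bp (chrI:3922065-3922167, plus strand) rose from 1.15, 1.18 and 0.658 TPM to 7.49, 11.9 and 11 TPM. It went from 8.81% to 42.6% of the window (log2 shift 2.41 ± 0.30 SE, limma, adjusted p = 0.000695). The window as a whole stood at 11.3 TPM in wild-type cells and 23.8 TPM in the mutant. At sxa2, whose product is a serine carboxypeptidase that degrades a mating pheromone, the cluster at -92 bp rose from 0.498, 0.315 and 0.607 TPM to 3.92, 4.40 and 4.48 TPM while the window as a whole stood at 4.90 and 5.46 TPM (log2 shift 2.96 ± 0.84 SE, limma, adjusted p = 0.0355). The summit of this sxa2 cluster also lay in the start window of an annotated long non-coding RNA. Without any 1 of the mutant libraries the shift at sxa2 missed the threshold (limma, adjusted p between 0.0738 and 0.109). At qcr2, a subunit gene of respiratory complex III, the cluster at -237 bp rose from 0.215 to 3.16 TPM (log2 shift 2.40, limma, adjusted p = 0.000559) and went from 0.0675% to 0.988% of its window, which stood at 319 TPM in the mutant.

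The 3 largest losses included windows in which another cluster rose. At fio1, encoding the ferroxidase of iron uptake, the broad cluster 302 bp after the start was at 7.67, 6.86 and 5.62 TPM against 3.83, 6.34 and 6.49 TPM, while the window sum went from 88.9 to 657 TPM. The broad cluster was 7.56% of the window in wild-type cells and 0.845% in the mutant (log2 shift -3.19, limma, adjusted p = 2.61e-05). At the uncharacterized gene SPAC32A11.02C the cluster at the annotated start went from 90.1% to 25% of the window (log2 shift -4.43, limma, adjusted p = 6.82e-05), with 13.9 ± 2.61 and 10.5 ± 2.33 TPM (SD, n = 3) in the cluster itself and 15.4 and 42.1 TPM in the window. At the peptidase gene SPBC337.11 it was the broad cluster that fell, from 10.7, 8.12 and 8.25 TPM to 1.38, 1.16 and 1.66 TPM, in a window of 18.3 and 19.2 TPM (log2 shift -3.24, limma, adjusted p = 2.59e-05).

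The 686 intragenic clusters lay in 464 host genes, 146 of which held at least 2. The summit was at a median of 33.8% of the gene's length (quartiles 21.8% and 49.3%). Hosts were strongly transcribed, with a median promoter sum of 163 TPM against 29.9 TPM for all genes of at least 1 TPM, and 60.6% of hosts exceeded 100 TPM against 22.4% of all genes. The largest numbers in 1 gene were 7 in fas2, encoding the fatty acid synthase alpha subunit, and 7 in sec31, encoding a coat protein of COPII vesicles. None of the 7 in fas2 passed the test in either direction, and 6 of the 7 in sec31 were higher, where 48.4% of all intragenic clusters tested were higher. Of the 4 genes with 5 clusters, aco1, encoding aconitase of the citric acid cycle, had 5 higher, fas1 and pfk1 had 1 each, and the translation initiation factor gene tif303 had none. None of these 20 was lower.

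The hosts of the 2 kinds of intragenic cluster stood at different levels, a difference that was not tested. Clusters with a pyrimidine-purine step lay in hosts with a median wild-type promoter sum of 37.2 TPM and stood at a median of 2.68% of that sum in wild-type cells and 15.9% in the mutant. Clusters with another step lay in hosts with a median of 348 TPM and stood at 1.28% and 1.47%. They were also wider, at a median of 135 bp against 105 bp.

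The level relative to the host promoter was compared too, with the same limit on the split by step. This ratio was tested over 2867 intragenic clusters, of which 35.6% were higher and 3.17% lower in the mutant (38.8% in either direction), in a comparison added after the data were seen. Of 211 broad clusters with a pyrimidine-purine step, 160 were higher and 11 lower (background 69.6% and 5.89% of such clusters, 75.5% in either direction), with a median log2 change of 1.65. Of 470 with another step, 29 were higher and 3 lower (background 6.42% and 0.843%, 7.26% in either direction), with a median of 0.16. Without mutant replicate 1 the count of 29 was 57, and without wild-type replicate 1 it was 19. Across the clusters, which share libraries, depth and in part hosts, the log2 change of the cluster and that of its host promoter had a Spearman rho of 0.71 and a Pearson r of 0.73 for the 470 clusters with another step. For the 211 with a pyrimidine-purine step rho was -0.056 and r 0.016.

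**Figure D4:**
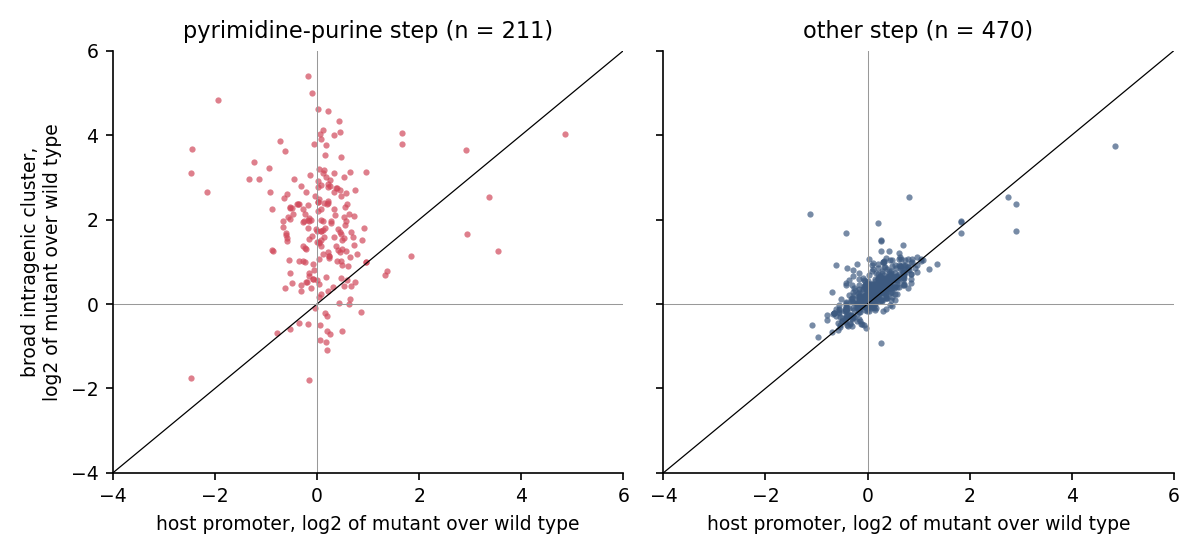
Each point is a broad intragenic cluster, with the log2 ratio of mutant to wild type of its host gene's promoter on the x axis and its own on the y axis; equal change lies on the diagonal. Clusters with a pyrimidine-purine step (left, n = 211) lie mostly above the diagonal, 160 of them past the threshold relative to the host, and clusters with another step (right, n = 470) lie along it.

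The largest rise of any broad cluster was inside mdn1, which encodes midasin, a very large ATPase of ribosome assembly. The 81 bp cluster (chrIII:1906340-1906420, plus strand) has its summit 5922 bp after the annotated start, in the coding exon. It was at 0.0498, 0.0789 and 0.253 TPM in wild-type cells and 27.1, 26.1 and 24.3 TPM in the mutant (log2 fold change 5.40 ± 0.18 SE, limma, adjusted p = 6.14e-07). The mdn1 promoter stood at 21.1 and 18.6 TPM, so the internal cluster was 0.603% of it in wild-type cells and 139% in the mutant.

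At usp109, encoding a U1 snRNP-associated protein, the 84 bp cluster (chrII:4406533-4406616, plus strand) was at 0.349, 0.552 and 0.354 TPM against 29.0, 34.0 and 23.9 TPM (log2 fold change 5.00 ± 0.19 SE, limma, adjusted p = 8.13e-07). The host promoter was at 26.2 and 24.3 TPM. At pot1, whose product binds the single-stranded end of telomeres in the shelterin complex, the 113 bp cluster (chrI:4130925-4131037, plus strand) was at 0.648, 1.03 and 0.911 TPM against 27.9, 25.9 and 26.6 TPM (log2 fold change 4.34 ± 0.16 SE, limma, adjusted p = 8.13e-07), with a host promoter of 18.7 and 25.3 TPM. In the mutant the internal cluster of each of these 2 genes exceeded the promoter sum, at 119% and 106%.

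At trm401, encoding a tRNA cytosine methyltransferase, the internal cluster rose while the promoter was lower. The 104 bp cluster (chrI:4730338-4730441, plus strand) was at 0.349, 0.0789 and 0.557 TPM against 24.9, 25.6 and 17.9 TPM (log2 fold change 4.84 ± 0.25 SE, limma, adjusted p = 1.84e-06). Its promoter sum was 89.6 TPM in wild-type cells and 23.1 TPM in the mutant. Inside vrp1, encoding the actin regulator verprolin, the level rose from 0.344 ± 0.232 to 19.1 ± 2.38 TPM (SD, n = 3, log2 fold change 4.57, limma, adjusted p = 1.79e-06). Inside abp1, listed as a protein of the cofilin and tropomyosin family, it rose from 1.17 ± 0.236 to 28.7 ± 2.53 TPM (SD, n = 3, log2 fold change 4.13, limma, adjusted p = 9.35e-07). Their promoter sums differed less, at 127 and 147 TPM for vrp1 and 34.5 and 37.4 TPM for abp1.

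A pair of named clusters lay on opposite strands at the border of lsh1 and hem14. A 162 bp cluster in the trailer of lsh1 (chrI:277641-277802, minus strand) lies opposite hem14, which encodes protoporphyrinogen oxidase of haem synthesis. It was at 4.23, 3.94 and 3.95 TPM in wild-type cells and 126, 102 and 108 TPM in the mutant (log2 fold change 4.62 ± 0.14 SE, limma, adjusted p = 6.14e-07). On the other strand an 84 bp cluster inside hem14 (chrI:277102-277185, plus strand) fell from 3.29, 3.0 and 2.33 TPM to 0.473, 0.388 and 0.604 TPM (log2 fold change -1.76 ± 0.18 SE, limma, adjusted p = 5.41e-05). The hem14 promoter was at 43.4 TPM in wild-type cells and 7.42 TPM in the mutant, and the internal cluster made up 6.61% and 6.58% of it. With 0.5 TPM added to both, which shrinks differences of such low levels, the ratio to the promoter was higher in the mutant (log2 change 0.69, limma, adjusted p = 0.0357). Sense starts of hem14 were lower in the mutant while those on the opposite strand were higher.

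The widest broad clusters were inside 4 abundantly transcribed genes, and 4 of the 5 did not pass the test. The widest of all, 832 bp in met26 (chrI:1479349-1480180, plus strand), which encodes the methionine synthase enzyme homocysteine methyltransferase, was at 70.6, 87.7 and 78.9 TPM against 69.8, 90.0 and 109 TPM (limma, adjusted p = 0.501). This was 2.53% of the host promoter in wild-type cells and 2.73% in the mutant. The 812 bp cluster in hsp90 (chrI:3890095-3890906, minus strand), encoding the Hsp90 chaperone, was at 193, 144 and 166 TPM against 179, 258 and 224 TPM (limma, adjusted p = 0.0963), or 6.26% and 7.20% of the host promoter. For both, the groups overlapped.

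The proton pump gene pma1 held 2 of the widest clusters, of 746 and 662 bp (chrI:3872726-3873471 and chrI:3873840-3874501, minus strand). The first was at 98.4 ± 4.94 and 119 ± 17.7 TPM and the second at 88.2 ± 12.1 and 107 ± 15.7 TPM (SD, n = 3; limma, adjusted p = 0.168 and 0.201). They were 16.8% and 15.0% of the wild-type promoter sum and 16.5% and 14.8% of the mutant one. Met26 and both pma1 clusters changed sign by the median of ratios. The highest internal levels also included a 532 bp cluster in sdh1, encoding a succinate dehydrogenase subunit, which rose from 130, 120 and 131 TPM to 157, 175 and 166 TPM (log2 fold change 0.39 ± 0.11 SE, limma, adjusted p = 0.0222). This sdh1 call was lost by the median of ratios (log2 fold change 0.065, limma, adjusted p = 0.665), with no filter on low values (limma, adjusted p = 0.125), without any of wild-type replicates 1 and 2 and mutant replicates 2 and 3 (limma, adjusted p between 0.0513 and 0.0926) and relative to its host, at 30.8% and 38.9% (limma, adjusted p = 0.449). A 661 bp cluster in the glycolytic phosphofructokinase gene pfk1 was at 144, 131 and 120 TPM against 105, 172 and 176 TPM (limma, adjusted p = 0.549). Without mutant replicate 1 the pfk1 and hsp90 clusters and the 746 bp one of pma1 passed as higher (limma, adjusted p = 0.0335, 0.0272 and 0.0267).

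The fifth of the widest clusters, 754 bp inside ath1 (chrII:1667499-1668252, plus strand), differed from these. The gene encodes a protein resembling ataxin-2, and the cluster had a CA step. It rose from 18.1, 19.6 and 18.3 TPM to 56.7, 67.6 and 63.8 TPM (log2 fold change 1.72 ± 0.13 SE, limma, adjusted p = 8.22e-06), while the ath1 promoter was at 136 and 145 TPM. An 85 bp antisense cluster (chrII:1667702-1667786, minus strand) lies within the same interval and rose from 0.996, 0.867 and 1.11 TPM to 46.4, 46.8 and 46.7 TPM (log2 fold change 4.98 ± 0.14 SE, limma, adjusted p = 6.14e-07). Starts on both strands of this stretch of ath1 were therefore higher in all 3 mutant libraries.

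**Figure D5:**
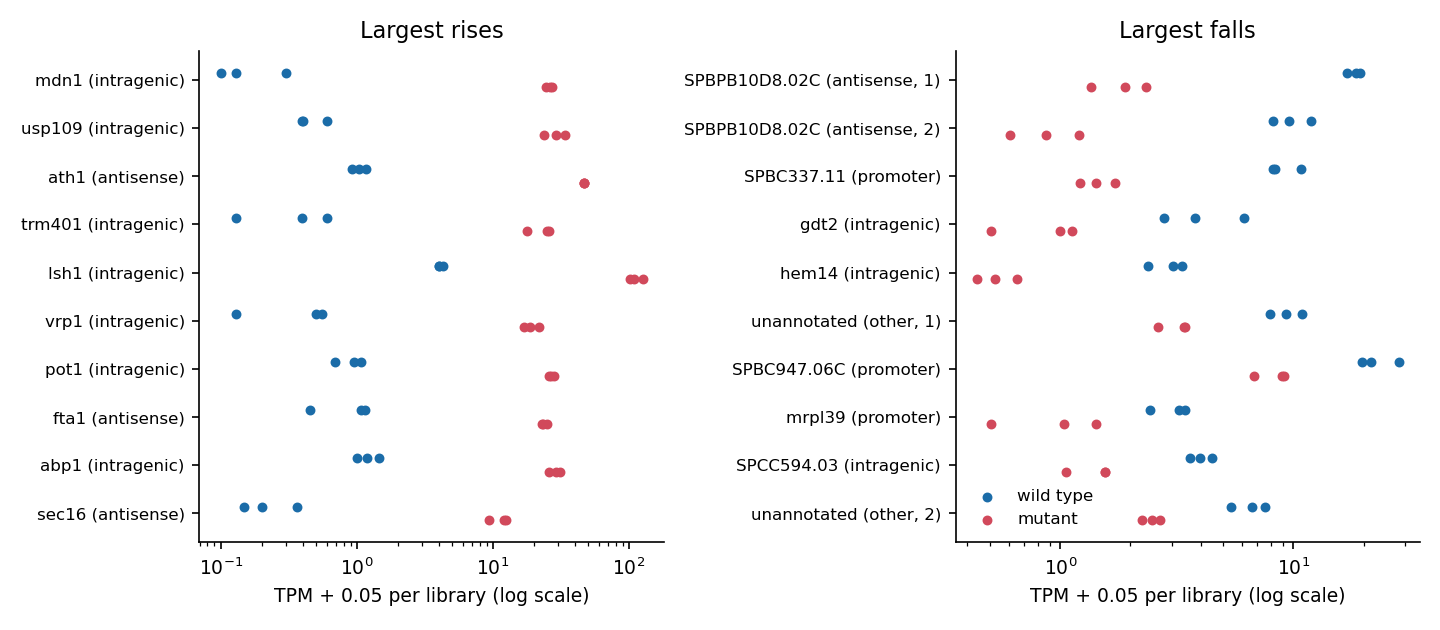
Points are single libraries (blue wild type, red mutant; TPM + 0.05, log scale) for the 10 broad clusters with the largest rise (left) and the 10 with the largest fall (right) among those past the threshold. Groups do not overlap for any of the 20, but these were picked for large changes in the same values. Of all 11250 clusters tested, 4807 were higher and 1398 lower without overlap. The rises shown span larger ratios than the falls.

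Antisense broad clusters lay opposite 149 genes, and 65.1% were nearer to the end than to the start of the gene, close to the 66.9% of narrow antisense clusters. Their median log2 fold change was 1.86, close to the 1.74 of all antisense clusters tested, and 100 of the 166 broad ones were at 2 TPM or less in the wild type. For 45 the summit was in the start window of an annotated long non-coding RNA. After ath1, the largest rises were opposite fta1, a kinetochore protein gene, and sec16, whose product organises COPII coats. The fta1 antisense cluster (chrI:4856419-4856519, minus strand) rose from 1.10, 1.03 and 0.405 TPM to 23.4, 22.7 and 24.7 TPM (log2 fold change 4.21 ± 0.23 SE, limma, adjusted p = 2.23e-06). The sense promoter of fta1 was at 13.1 and 9.71 TPM, so antisense starts were fewer than sense starts in wild-type cells and more in the mutant. The sec16 antisense cluster (chrI:5425481-5425614, minus strand) rose from 0.0996, 0.315 and 0.152 TPM to 9.38, 12.1 and 12.5 TPM (log2 fold change 4.10 ± 0.19 SE, limma, adjusted p = 1.27e-06).

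The 3 antisense clusters of highest level did not rise. The one opposite rib7, a riboflavin synthesis gene, fell from 144, 139 and 172 TPM to 122, 103 and 108 TPM (log2 fold change -0.44 ± 0.13 SE, limma, adjusted p = 0.0245), far above the 2.55 and 2.87 TPM of the rib7 promoter itself. The rib7 call was lost on leaving out wild-type replicate 3, or either replicate 2 or 3 of the mutant (limma, adjusted p between 0.077 and 0.0902), and with no filter on low values (limma, adjusted p = 0.0732). Those opposite eta2, which encodes a termination factor of RNA polymerase I, and def1, which encodes a factor for degradation of RNA polymerase II, were at 44.3 ± 4.32 against 39.5 ± 0.521 TPM and at 38.6 ± 7.04 against 39.4 ± 4.01 TPM (SD, n = 3; limma, adjusted p = 0.338 and 0.868). Groups of def1 overlapped, and those of eta2 stood side by side, at 39.80 TPM in the lowest wild-type and 39.78 TPM in the highest mutant library. By the median of ratios eta2 passed as lower (log2 fold change -0.48, limma, adjusted p = 0.0181).

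The strongest falls of all were also antisense. A pair of clusters opposite the arylsulfatase gene SPBPB10D8.02C fell together with its own promoter. The first (chrII:84831-84962, plus strand) went from 18.5, 19.2 and 16.8 TPM to 1.85, 2.28 and 1.31 TPM (log2 fold change -3.03 ± 0.19 SE, limma, adjusted p = 3.5e-06) and the second (chrII:84564-84691, plus strand) from 9.52, 11.8 and 8.15 TPM to 0.559, 0.819 and 1.16 TPM (log2 fold change -2.95 ± 0.22 SE, limma, adjusted p = 7.95e-06). The promoter sum of the gene was 10.6 TPM in wild-type cells and 2.13 TPM in the mutant. Both strands of the locus were lower in the mutant.

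The other large falls were of modest level. A cluster in an intron of gdt2 fell from 3.74, 6.07 and 2.73 TPM to 1.08, 0.948 and 0.453 TPM (log2 fold change -1.79, limma, adjusted p = 0.00112), and it fell relative to its host too (limma, adjusted p = 0.00043). The promoter cluster of SPBC947.06C, a transporter gene of the spermidine family, fell from 28.2, 19.7 and 21.4 TPM to 6.75, 9.05 and 8.91 TPM (log2 fold change -1.43, limma, adjusted p = 0.000263). Falls also passed the test at the mitochondrial ribosomal protein gene mrpl39 (2.99 ± 0.536 to 0.941 ± 0.465 TPM, SD, n = 3) and in the trailer of SPCC594.03 (3.97 ± 0.447 to 1.34 ± 0.289 TPM, SD, n = 3).

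Of the 78 clusters outside coding genes, 62 were in no annotated start window, 14 were at the start of a long non-coding RNA and 2 at that of a pseudogene. In the mutant 31 were higher and 13 lower (backgrounds 33.3% and 15.8%), and 26 and 22 by the median of ratios. The highest, in no start window (chrII:674163-674330, plus strand), rose from 34.0, 27.4 and 31.2 TPM to 103.8, 115.0 and 104.6 TPM (log2 fold change 1.79 ± 0.13 SE, limma, adjusted p = 7.51e-06). The one at the pseudogene SPCC1450.01C rose from 33.1 ± 5.85 to 60.1 ± 4.67 TPM and the one at the non-coding RNA SPNCRNA.782 fell from 46.2 ± 6.73 to 26.3 ± 4.34 TPM (SD, n = 3; limma, adjusted p = 0.00226 and 0.00489). Unannotated clusters at chrII:2528875-2528991 and chrII:1267419-1267594 fell from 9.30 ± 1.46 to 3.11 ± 0.45 TPM and from 6.48 ± 1.07 to 2.41 ± 0.212 TPM (SD, n = 3; limma, adjusted p = 0.00019 and 0.000367).

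Lists of gene groups showed where broad clusters were found. Of 141 ribosomal protein genes none had a broad promoter cluster, and 15 of them held 16 intragenic ones, all without a pyrimidine-purine step. Their median log2 fold change was -0.39 and 1 passed the test, that of rpl1602, which was lower. Of all intragenic clusters tested, 3.08% were lower, and 1.04% of those without a pyrimidine-purine step. By the median of ratios 14 of the 16 were lower. Relative to the host promoters none of the 16 passed the test, and the median was 0.10.

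Glycolysis and fermentation genes held 17 intragenic clusters in 7 genes, of which 8 were higher and 0 lower (4 and 0 by the median of ratios), and 3 were higher relative to their host. Of all intragenic clusters tested 48.4% were higher, and 35.6% of those tested relative to their host. By step, 75.6% of those with a pyrimidine-purine step, which 4 of the 17 had, and 24.1% of the others were higher. The pair with the largest changes was inside pdc201, a pyruvate decarboxylase gene, at 0.548, 0.394 and 0.607 TPM against 12.9, 12.9 and 14.5 TPM and at 0.648, 1.58 and 0.405 TPM against 14.8, 23.2 and 26.8 TPM (limma, log2 fold changes 3.78 and 4.06). The pdc201 promoter was at 1.10 and 4.60 TPM. Chaperone genes held 14 intragenic clusters in 8 genes, with 7 higher and 0 lower (3 and 0 by the median of ratios). Of these 14 only that of cdc37 had a pyrimidine-purine step, and it was the 1 higher relative to its host. Among all intragenic clusters with another step 24.1% were higher, and 6.42% relative to their host. A promoter cluster of mas5, an Hsp40 gene, rose from 23.0 ± 3.09 to 32.7 ± 5.90 TPM (SD, n = 3, limma, adjusted p = 0.0463). The mas5 call was lost by the median of ratios (limma, adjusted p = 0.414).

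All 6 intragenic clusters in phosphate genes were higher, where 48.4% of all intragenic clusters tested were, and their host promoters stood higher too. The 6 lay in pho84, the phosphate transporter gene (promoter at 474 and 1698 TPM), pho1, encoding an acid phosphatase, and tgp1, a glycerophosphodiester transporter gene (promoter at 11.9 and 94.3 TPM). The widest in pho1 was at 3.24, 3.0 and 2.78 TPM against 39.7, 48.8 and 50.4 TPM (log2 fold change 3.73), with a promoter at 70.6 and 2050 TPM, so relative to the host it was lower (log2 change -1.02, limma, adjusted p = 0.00813). Relative to the host promoters none of the 6 was higher and 2 were lower (background 35.6% and 3.17%), and the median was -0.41. These ratios had 0.5 TPM added to both parts, which shrinks differences of such low levels. As plain percents of the host, wild type then mutant, the clusters in pho84 stood higher (0.675% to 0.821%, 0.366% to 0.486% and 0.176% to 0.221%). Those in pho1 (4.26% to 2.26% and 0.970% to 0.900%) and tgp1 (3.97% to 2.63%) stood lower. These percents were not tested. Genes for translation factors held 9 intragenic clusters (1 higher, and 0 higher and 2 lower by the median of ratios), cell surface genes 18 (5 higher, and 0 higher and 2 lower by the median of ratios) and 8 promoter clusters (that of eng1 lower, and 3 lower by the median of ratios), and proteasome genes 1. None of the 9 and 1 of the 18 had a pyrimidine-purine step, and 24.1% of all intragenic clusters tested with another step were higher. Of all promoter clusters tested 13.0% were lower. No histone gene had a broad cluster. The list of iron genes had 1 intragenic cluster, in the siderophore gene sib2, which rose from 10.2, 9.62 and 9.87 TPM to 19.7, 21.3 and 20.4 TPM.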

How the data were processed

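CAGE was measured in 6 libraries, 3 per group, grouped by genotype label. The submitters' processing notes list build ASM294v2 and the tools bedtools 2.15.0, Bowtie 0.12.7 and CASAVA 1.6, without their roles. Levels were deposited as RPM: the authors divided each cluster's tags by the library total and named the unit TPM, for tags. Between 99.7% and 99.8% of values were whole multiples of 1 tag (tolerance 0.02), which gave totals of 12681899 to 23242897 tags. At 1 TPM counting error was 20.7% to 28.1% per library and covers counting error only. The cluster table holds a pooled score, a deposited signal over all libraries, plus other fields for position, strand and summit as deposited. The score, which defines the set, lies below the sum of a cluster's 6 values (median 87.4% of it for members and 81.3% for all clusters), and how it was taken is not given in the sources used here.

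The members, the gene lists and the rules were chosen with earlier results of these data known. Named clusters are the 8 of highest level, the 10 largest rises and falls past the threshold, the 5 widest, the 3 highest of each class outside promoters and the 3 largest promoter shifts each way. Genes named from lists were chosen after their values were seen, as were the genes with most clusters.

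Annotation and sequence came from ASM294v3. In 12 equal parts of the 3 chromosomes, 96.3% to 100% of promoter summits had a pyrimidine-purine step ending 1 bp upstream of the deposited summit, and 70.0% to 81.1% lay 1 bp after the annotated start, so the step was read 1 bp upstream. Coordinates count from 1.

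The 11250 clusters whose mean reached 1 TPM were fitted with limma 3.58.1 (trend) on log2(TPM + 0.5); its two-sided p-values were adjusted over all of them by Benjamini-Hochberg. That scale understates changes of low clusters. The promoter shift was tested with limma on the log2 ratio of a cluster to the rest of its window (window mean of at least 5 TPM), and intragenic clusters relative to the host promoter likewise. Class shares used exact permutation tests. edgeR 4.0.16 and DESeq2 1.42.0 on recovered tags were alternatives, beside other pseudocounts, filters, scalings, limits, a replicate block and leaving out libraries. The code was tested on simulated data.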

Additional observations from a re-analysis of the deposited data

How the results depend on the processing

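The deposited scaling set the median of all clusters tested to 0.27 on the log2 scale, and the other scalings moved it to -0.017 (median of ratios) and -0.020 (TMM). Higher and lower calls among the 1252 broad clusters were 423 and 187 by the median of ratios, 424 and 186 by TMM, 419 and 186 in edgeR, and 402 and 173 in DESeq2, with medians of 0.15, 0.14, 0.15 and 0.16. In the same order, promoter calls were 52 and 92, 53 and 93, 49 and 92, and 47 and 88, with medians of -0.16, -0.16, -0.18 and -0.17. Lower intragenic calls were 60, 58, 59 and 52, and those with a non-initiator step had 69, 69, 68 and 58 higher and 44, 42, 43 and 36 lower. Other clusters had 22, 22, 22 and 21 lower calls and medians of -0.020, -0.023, -0.034 and -0.030. The log2 fold changes turned, in that order, to -0.079, -0.083, -0.052 and -0.045 for tkt1, -0.032, -0.036, -0.020 and -0.018 for sua1, -0.16, -0.16, -0.15 and -0.15 for met26, -0.057, -0.061, -0.055 and -0.052 and then -0.048, -0.052, -0.052 and -0.048 for the pma1 pair, -0.16, -0.16, -0.14 and -0.13 for pfk1 and -0.28, -0.28, -0.30 and -0.29 for def1.

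With a mean of at least 5 TPM, fewer clusters were tested: 224 higher and 52 lower (median 0.30), of which 44 and 31 at promoters, 128 and 7 intragenic (61 and 5 with an initiator step, 67 and 2 without), 40 and 4 antisense and 12 higher among other. Without a filter 3 clusters with another step were lower. Width limits of 60 and 100 bp, which change the members, gave 937 and 361 higher, 165 and 53 lower, 46.7% and 61.4% intragenic, and 117 and 45 promoter shifts toward and 105 and 30 away. Shifts toward and away were 37 and 31 with a pseudocount of 0.1, 44 toward with a window of 200 bp, and 30 away with a window mean of at least 20 TPM. With a pseudocount of 1, 5 clusters with another step were lower relative to their host.

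Leaving out each library in turn gave 473 to 591 higher and 65 to 84 lower broad clusters (antisense lower 5 to 7; other-step higher 92 to 168 and lower 2 to 6; relative to host 19 to 57 higher), 41 to 60 shifts toward and 35 to 47 away. Adg2 then ranged from -0.33 to 0.13, above 0 if wild-type or mutant replicate 1 was left out, and def1 from -0.052 to 0.18, below 0 in 3 of the 6 cases. Same-numbered libraries deviated apart (r of -0.18, -0.15 and -0.25), so numbers did not pair them, and each library correlated best with another number (wild-type replicates 1, 2 and 3 with mutant replicates 2, 3 and 1, r of 0.35, 0.29 and 0.34). The replicate block gave 493 higher and 72 lower, and 5 antisense lower, and met14, sdh1 and rib7 were not called with it (limma, adjusted p = 0.0824, 0.0880 and 0.0693). Of the values for named clusters under all alternatives, 676 kept direction and side of the threshold, 19 became stronger, 22 weaker and 33 turned. The cause of these moves was not tested beyond the fewer clusters or libraries that some settings leave.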
